A study of Danio rerio with 6 samples.

Results

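Of the 898 Smad2 peaks mapped in zebrafish blastulas, 267 shared no base with any of the 6378 Eomesa peaks although an Eomesa peak lay on the same sequence within 50 kb (29.7% of all Smad2 peaks). The 267 peaks were chosen from both peak lists by position alone, with the gap taken between the nearest edges. A further 276 lone Smad2 peaks had no Eomesa peak within this distance, and 355 Smad2 peaks shared at least 1 base with an Eomesa peak. The chromatin came from pools of wild-type AB embryos between high and sphere stage, and was divided over 6 libraries, 2 immunoprecipitated for Smad2, 2 immunoprecipitated for Eomesa and 2 of input, which is chromatin taken before immunoprecipitation. No allele or treatment separated these groups. The embryos were processed whole, so that all cell types of the blastula contributed to each value. Each factor had 1 peak list, limited to regions that both of its reactions gave, and each of Smad2, Eomesa and input had 1 coverage track. No error between replicates could therefore be given, and the values are descriptions without tests. Because peaks were called on this signal, the low Eomesa signal of lone Smad2 peaks was part of how they were chosen.

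Nodal ligands activate receptors that phosphorylate Smad2, which then enters the nucleus and is held at DNA by partner transcription factors. Foxh1, a forkhead factor, and Eomesodermin, a T-box factor, are known partners in the formation of mesoderm and endoderm. Eomesa, a zebrafish homologue of Eomesodermin, is supplied by the mother and is present in the blastula when Nodal signalling begins. A lone Smad2 peak near an Eomesa peak is a place where the lists put both factors in 1 neighbourhood but not on the same bases.

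The study listed, for each Smad2 peak, the best match to a Foxh1 binding matrix where there was one. Such a match of 11 bases was listed for 91 of the 267 peaks (34.1%, 95% Wilson interval 28.7 to 40.0), compared with 41.8% of all Smad2 peaks. For lone Smad2 peaks farther than 50 kb the share was 27.5% (22.6 to 33.1), and for those shared with Eomesa it was 58.6% (53.4 to 63.6). The 91 peaks had a median Smad2 height of 17 tags and a median width of 320 bp, against 13 tags and 269 bp in the 176 peaks with no match listed. Matches thus went with taller and wider peaks, and the part of width was not tested. The matches below belong to some of the peaks near developmental genes described further on, with the 8-base core in capitals, 5′ to 3′. Smad2_peak271, Smad2_peak794 and Smad2_peak795 also had a match, which is not printed.
Smad2_peak132, flh: tccAATACACA
Smad2_peak367, foxc1a: atgAATACACA
Smad2_peak722, foxd3: catAATACACA
Smad2_peak270, gsc: tccAATAAACA
Smad2_peak796, fgf3 and fgf4: atgAATAAACA
Smad2_peak170, fgf24: aggAATCAACA
Smad2_peak839, tbx16: cacAATCCACA
The core AATACACA, with which the first 3 end, was the most frequent one, in 31 of the 91 matches (34.1%) against 131 of the 375 matches over all Smad2 peaks (34.9%). AATCAACA and AATCCACA followed with 10 matches each, and AATAAACA with 9. The mix of cores in these peaks was close to that of the whole list. A listed match is a run of letters that resembles the Foxh1 site, and Foxh1 binding was not measured.

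The 267 peaks were first measured in all 3 tracks. Height is the highest number of overlapping tags in the peak, and signal is the mean over the peak as a multiple of the mean of its track across the genome. Smad2 height ranged from 2 to 64 tags with a median of 14 (95% interval 13 to 15, quartiles 11 and 19.5). Eomesa height ranged from 0 to 28 tags with a median of 3 (quartiles 2 and 5), and input height from 0 to 70 tags with a median of 7 (quartiles 5 and 11). Heights of different tracks are not on 1 scale, since an Eomesa tag covered 38.9 bp and a Smad2 or input tag 132 bp. Depth differed too, with a genome mean of 1.18 overlapping tags for Smad2, 0.340 for Eomesa and 1.78 for input. Equal Smad2 and input heights are therefore not equal signals. As signal, the medians were 7.65 times the track mean for Smad2 (7.27 to 8.12), 2.79 times for Eomesa (2.40 to 3.35) and 2.29 times for input (2.07 to 2.52). All 3 tracks were thus above their genome mean at the median peak, Smad2 most. Intervals cover counting and the sampling of peaks only.

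Dividing the scaled Eomesa signal by the scaled input signal gave a median of 1.16 (1.0 to 1.33) over the 265 peaks with input signal. The same ratio was 1.01 (0.810 to 1.13) at lone Smad2 peaks farther than 50 kb and 13.4 (12.4 to 15.7) at peaks shared with Eomesa. Taken from highest values instead of means over the peak, the median at the 267 peaks was 2.17. Eomesa signal reached at least 2 times input at 73 of 265 peaks (27.5%, 22.5 to 33.2), where the share was 55.4% over all Smad2 peaks and 15.7% over 300 bp tiles of chromosomes 1 to 25. Among the farther lone peaks it was 71 of 273 (26.0%, 21.2 to 31.5). The intervals of near and far lone peaks overlapped over most of their length. For Smad2 the same limit was passed by 238 of 265 peaks (89.8%), against 93.8% of all Smad2 peaks.

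**Figure D1:**
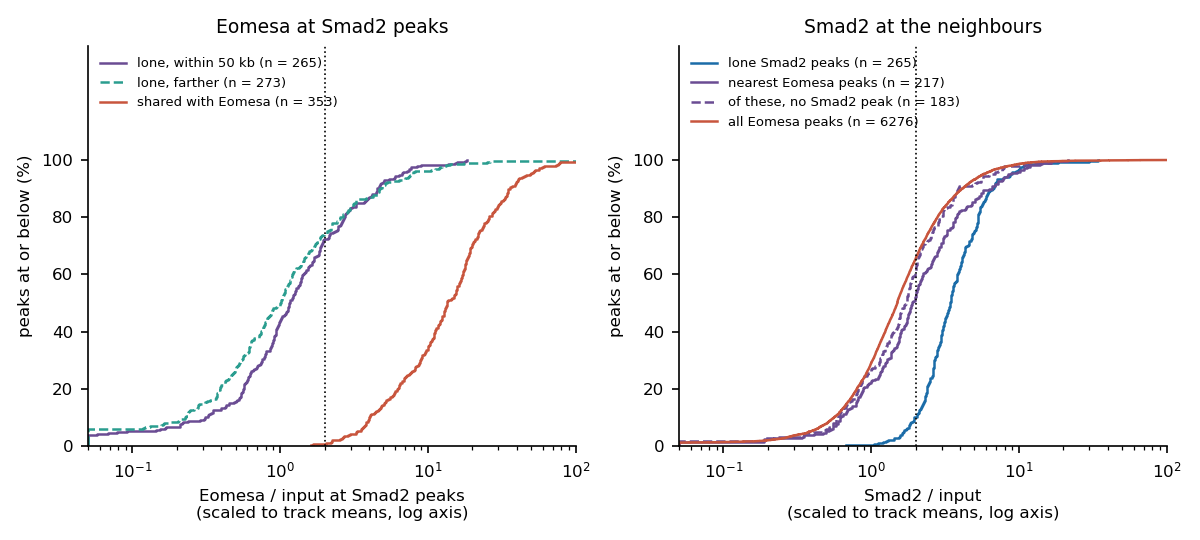
Share of peaks (vertical axis, percent) at or below each ratio of scaled signal to input (horizontal log axis, dotted line at 2), for Eomesa at 3 sets of Smad2 peaks (left) and for Smad2 at lone Smad2 peaks and at Eomesa peaks (right); ratios below 0.05 are drawn at the left edge. The near and far lone peaks run close together with medians of 1.16 and 1.01, far to the left of the shared peaks at 13.4.

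A stricter reading used height. The lower quartile of height over all Eomesa peaks was 9 tags, and 35 of the 267 peaks reached this Eomesa height (13.1%, 9.58 to 17.7), compared with 44.5% of all Smad2 peaks and 2.26% of the tiles. Farther lone peaks reached it in 27 of 276 cases (9.78%, 6.81 to 13.9). At the other end, 12 of the 267 peaks had no Eomesa tag (4.49%, 2.59 to 7.69), against 3.23% of all Smad2 peaks and 6.16% of farther lone peaks. At 30 of the 267 peaks (11.2%) the Eomesa height was at least that of the nearest listed Eomesa peak. Of these 30, 15 also had at least 2 times as much Eomesa as input.

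Across the 267 peaks the signals moved together in part. Spearman's rho was 0.44 between Smad2 and Eomesa signal, 0.47 between Smad2 and input and 0.34 between Eomesa and input. These correlations are across sites of the same 3 tracks that share local tag density, and are given as a description. The gap to the nearest Eomesa peak had a rho of -0.10 with Eomesa signal and of -0.03 with Smad2 height, so that neither followed the gap closely.

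The gap itself ranged from 1 bp to 49679 bp with a median of 11298 bp (9523 to 14264) and quartiles of 4025 and 28874.5 bp. It was at most 1 kb for 24 peaks, between 1 and 5 kb for 57, between 5 and 10 kb for 41, between 10 and 20 kb for 49 and above 20 kb for 96. The nearest Eomesa peak lay at higher coordinates for 137 peaks (51.3%), so that no side prevailed. More than 1 Eomesa peak lay within 50 kb of 136 peaks (50.9%), on both sides of 61, and at least 5 lay near 12. The most, 9, surrounded Smad2_peak839 near tbx16. Just inside the limit lay Smad2_peak173 at 49679 bp and Smad2_peak593 at 48963 bp. Just outside lay Smad2_peak678 at 50189 bp, which had no width, and Smad2_peak592 at 50423 bp. Smad2_peak592 and Smad2_peak593 were neighbours on chromosome 25 with 21 and 26 Smad2 tags, so that the limit divided a single group of peaks.

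Eomesa signal at the peak did not fall evenly with the gap. The share with at least 2 times input was 11 of 23 (47.8%, 29.2 to 67.0) up to 1 kb and 18 of 57 (31.6%, 21.0 to 44.5) from 1 to 5 kb. Farther away it was 7 of 41 (17.1%) from 5 to 10 kb, 15 of 48 (31.3%) from 10 to 20 kb and 22 of 96 (22.9%, 15.6 to 32.3) beyond. The closest class was highest, but its interval met those of the other classes. Median Smad2 height was between 12 and 15 tags in every class.

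The lists hold only regions called in both reactions, so Eomesa signal on or beside a peak could go unlisted. For the 243 peaks with no listed Eomesa peak within 1 kb, the track was read from 1 kb before to 1 kb after the peak. This window held the peak itself, and its highest Eomesa value was 5 tags at the median and 39 at most. It reached 9 tags at 55 of these peaks (22.6%, 17.8 to 28.3), against 20.6% of all lone Smad2 peaks with no Eomesa peak listed within 1 kb. Among farther lone peaks the share was 52 of 276 (18.8%, 14.7 to 23.9). The peak alone reached 9 tags at 35 of all 267, and no share over the genome was taken for such a window. Eomesa signal of that height thus stood on or beside part of the peaks without being listed. The share was close to that of all such lone peaks, of which the 243 are a part, and does not set them apart.

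The nearest Eomesa peaks were measured next. The 267 Smad2 peaks had 220 different nearest Eomesa peaks, since 22 of these served more than 1 Smad2 peak. The most was 7 Smad2 peaks, as at Eomesa_peak4086 and Eomesa_peak4091. At 48 of the 267 the nearest Eomesa peak shared a base with another Smad2 peak (18.0%, 13.8 to 23.0), compared with 5.63% of all Eomesa peaks. With each Eomesa peak counted a single time, the share was 34 of 220 (15.5%, 11.3 to 20.8). By gap it was 8 of 24 (33.3%) up to 1 kb, 18 of 57 (31.6%) from 1 to 5 kb, 9 of 41 (22.0%) from 5 to 10 kb, 8 of 49 (16.3%) from 10 to 20 kb and 5 of 96 (5.21%, 2.24 to 11.6) beyond. Lone Smad2 peaks close to Eomesa therefore often lay beside a region listed for both factors, and for those beyond 20 kb the share was close to that of all Eomesa peaks. Counting any distance up to 50 kb, 65 of the 267 (24.3%, 19.6 to 29.8) had a shared Smad2 peak near them. Among Smad2 peaks shared with Eomesa, 107 of 355 (30.1%) had another such peak near them, and among both sets together the share was 27.7%. The farther lone peaks can have none by the way they were chosen.

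**Figure D2:**
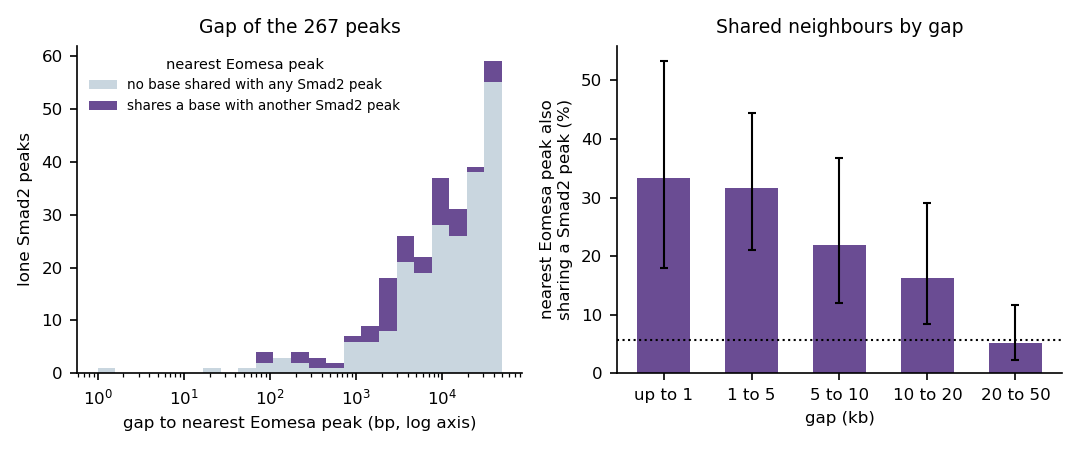
Number of the 267 lone Smad2 peaks by gap to the nearest Eomesa peak (left, bp on a log axis) and the share of nearest Eomesa peaks that also share a base with another Smad2 peak in each gap class (right, percent with 95% Wilson intervals). The share falls from 33.3% up to 1 kb to 5.21% above 20 kb, where it meets the dotted line at 5.63% for all Eomesa peaks.

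Smad2 signal at the nearest Eomesa peak had a median of 5.01 times its mean (4.48 to 5.41) over the 267 pairs, and of 4.72 (4.25 to 5.30) over the 220 different Eomesa peaks. Over all Eomesa peaks the median was 3.62. Where the nearest Eomesa peak shared a base with another Smad2 peak the signal was high, as the lists require, with a median of 10.8 over 48 pairs. Leaving these out, the 186 different nearest Eomesa peaks without a Smad2 peak had a median of 4.25 (3.83 to 4.61), against 3.44 (3.38 to 3.51) at all 6019 Eomesa peaks without a Smad2 peak. Relative to input these medians were 1.72 (1.51 to 1.87) and 1.43 (1.40 to 1.46). Of the 183 of these 186 with input signal, 71 reached at least 2 times input (38.8%, 32.0 to 46.0), compared with 30.9% of all Eomesa peaks without a Smad2 peak. Unlisted Smad2 signal was therefore somewhat higher at Eomesa peaks beside a lone Smad2 peak than at Eomesa peaks at large. A split by gap was made only over pairs whose Eomesa peak had no Smad2 peak, where an Eomesa peak can count several times. By these pairs, the median ratio to input was 2.14 up to 1 kb, 2.01 from 1 to 5 kb and 2.20 from 5 to 10 kb. It was 1.49 from 10 to 20 kb and 1.55 beyond. The classes held 16, 39, 32, 41 and 91 pairs, and no interval was taken for these medians. Whether the excess over different Eomesa peaks depended on the gap was not tested. Among pairs whose Eomesa peak had no Smad2 peak, the median signal was 4.94 times the mean where the gap was at most 1 kb (16 pairs) and 3.56 times where it exceeded 20 kb (91 pairs). The Eomesa peaks themselves had a median Eomesa height of 14 tags over the pairs, as over all Eomesa peaks. At 82 of the 267 (30.7%) the Smad2 height was at least as great at the nearest Eomesa peak as at the lone Smad2 peak itself. Among the 219 pairs whose Eomesa peak had no Smad2 peak, this held for 50 (22.8%, 17.8 to 28.8).

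Mean profiles were drawn for the 186 peaks more than 5 kb from Eomesa, turned so that the Eomesa peak lay to the right. Over the central 100 bp on each side Smad2 averaged 9.50 times its mean, Eomesa 4.27 and input 2.67. In the flanks, from 1 to 3 kb away, the averages were 1.91, 1.18 and 1.13. At the nearest Eomesa peaks without a Smad2 peak, counted over 164 pairs, the centre averaged 28.7 for Eomesa, 4.89 for Smad2 and 3.07 for input. An Eomesa peak nearest to several lone Smad2 peaks entered these averages for each of them. On average, the lone Smad2 peaks were thus centred on a narrow rise of Eomesa that exceeded the rise of input, and their neighbours on a narrow rise of Smad2. An Eomesa tag covered 38.9 bp and an input tag 132 bp, and the part of tag length in this difference from input was not tested. The Eomesa average at farther lone peaks was 4.34, so a rise of like size was found with no Eomesa peak listed nearby. These averages lie above the medians because part of the peaks had high values. The Smad2 flank of 1.91 stood against 1.28 around farther lone peaks, a difference that was smaller without neighbouring peaks. With no other Smad2 peak within 10 kb the flank averaged 1.23 at 137 of the 186 and 1.08 at 242 farther lone peaks. In the stretch between both peaks, with 500 bp taken off at each end, the medians over 229 pairs were 1.30 for Smad2, 1.07 for Eomesa and 1.13 for input. Between the peaks, Eomesa and input were therefore close to their genome means. Smad2 was somewhat above its mean, with quartiles of 1.01 and 1.90.

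**Figure D3:**
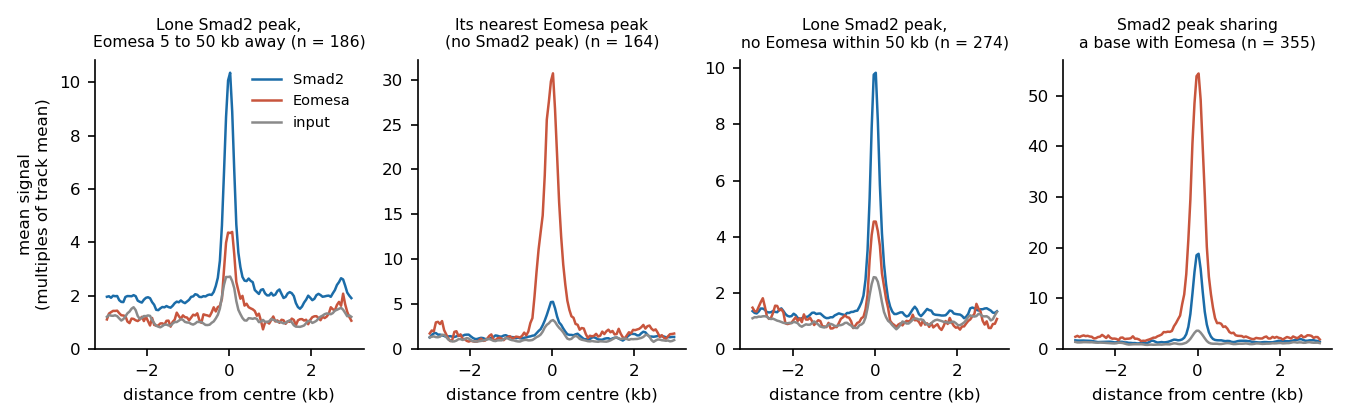
Mean signal (vertical axes, multiples of each track's genome mean, with a separate scale in each panel) against distance from the peak centre (horizontal axes, kb) for Smad2, Eomesa and input in 4 sets of peaks. In the central 100 bp on each side, Smad2 averages 9.50, Eomesa 4.27 and input 2.67 at lone Smad2 peaks over 5 kb from Eomesa. At their nearest Eomesa peaks without a Smad2 peak (164 pairs, some with the same Eomesa peak), Eomesa averages 28.7 and Smad2 4.89 there.

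Genes were taken from the study's own annotation, which gives gene starts within 10 kb of a peak. A gene start was listed for 174 of the 267 peaks (65.2%), compared with 60.2% of all Smad2 peaks. Of 66 genes in 4 lists of Nodal pathway, mesendoderm, Fgf and Bmp or Wnt genes, some were listed at 21 of the 267 peaks, compared with 8.91% of all Smad2 peaks. They were listed at 3 of the 276 farther lone peaks and at 56 of the 355 shared peaks. The lists were drawn up with earlier results of these data known. The 21 peaks had a median Smad2 height of 27 tags and a median ratio of Eomesa to input of 1.56. Among the 21, 10 had at least 2 times as much Eomesa as input, 8 had a nearest Eomesa peak shared with another Smad2 peak, and 12 had a Foxh1 match. Over all 80 Smad2 peaks listed with these genes, 66 had at least 2 times as much Eomesa as input and 54 a Foxh1 match, and over the 56 shared ones 55 and 40. Median Smad2 height was 29.5 tags over the 80 and 36 over the 56. Lone peaks at such genes were thus tall for the set, but their median was below that of all Smad2 peaks at these genes.

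**Figure D4:**
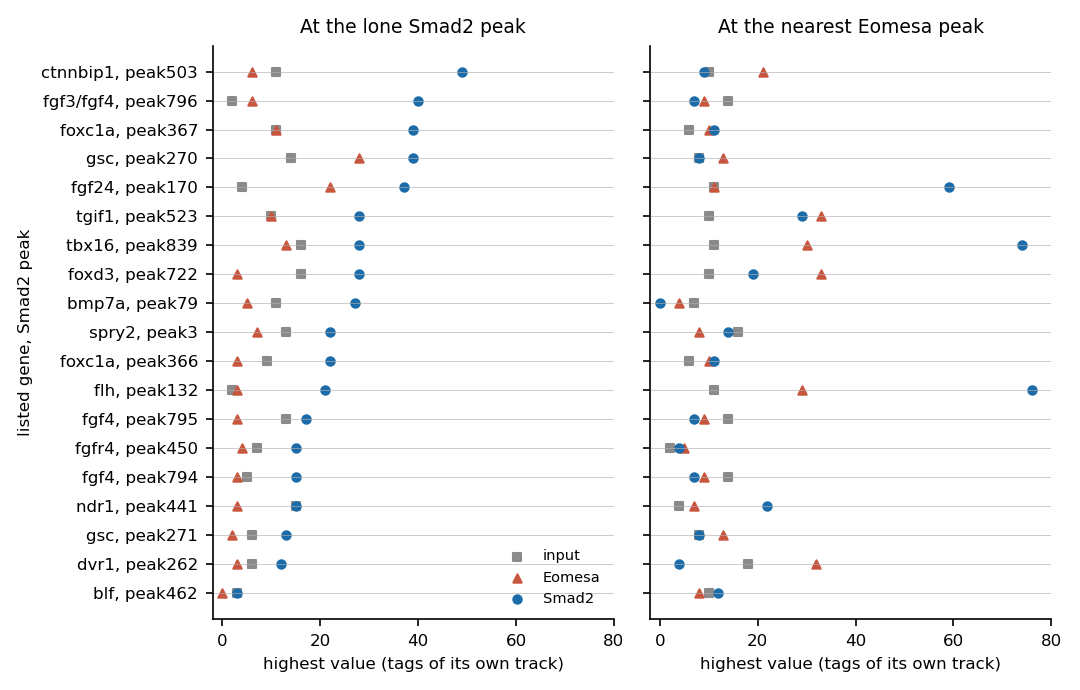
Highest value (horizontal axes, tags of each track) of Smad2, Eomesa and input at 19 of the 21 lone Smad2 peaks listed with a developmental gene (left) and at the nearest Eomesa peak of each (right); heights of different tracks are not on 1 scale. Smad2 runs from 3 tags at the blf peak to 49 at the ctnnbip1 peak, and the nearest Eomesa peaks of flh, tbx16 and fgf24 carry the highest Smad2 values, 76, 74 and 59 tags.

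Nodal pathway genes were listed at 5 of the 267 peaks (1.87%) and at 16 of all 898 Smad2 peaks (1.78%), and 3 of the 5 are described. At tgif1, which encodes a co-repressor of the pathway in mammals, Smad2_peak523 had 28 Smad2, 10 Eomesa and 10 input tags and lay 4679 bp from a shared region of 29 Smad2 and 33 Eomesa tags. The peaks at ndr1, a Nodal ligand, and dvr1, the ligand that partners Nodal, were close to the median height of the set. Smad2_peak441 at ndr1 had 15 Smad2 tags and as many input tags, but its scaled ratio of Smad2 to input was 2.49. Its nearest Eomesa peak, 7911 bp away, had 22 Smad2 and 7 Eomesa tags. Smad2_peak262 at dvr1 had 12 Smad2 and 6 input tags, a ratio of 4.30, with its Eomesa peak 44611 bp away.

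Of the mesendoderm transcription factors, 6 were listed at 8 of the 267 peaks (3.00%, against 3.67% of all Smad2 peaks), all within 5324 bp of Eomesa. At flh, which encodes a homeodomain factor of the notochord, Smad2_peak132 (chromosome 13, 14833022 to 14833314) had 21 Smad2, 3 Eomesa and 2 input tags. Its Eomesa signal was 2.69 times the mean and, over so little input, 7.62 times input. It lay 844 bp from Eomesa_peak985, where another Smad2 peak overlapped and Smad2 reached 76 and Eomesa 29 tags. In all, 3 shared Smad2 peaks lay within 50 kb, and the lone peak was smaller than this neighbour in both factors. A like arrangement was seen at tbx16, a T-box gene of the paraxial mesoderm, also with 3 shared Smad2 peaks within 50 kb. There Smad2_peak839 (chromosome 8, 54038933 to 54039355) had 28 Smad2, 13 Eomesa and 16 input tags, and the shared region 2001 bp away had 74 Smad2 and 30 Eomesa tags. At gsc, the organizer homeobox gene, no Smad2 peak within 50 kb was shared with Eomesa. Smad2_peak270 (chromosome 17, 19176993 to 19177569) had 39 Smad2 tags (27.7 to 53.3), 28 Eomesa tags (18.6 to 40.5) and 14 input tags. Its Eomesa signal was 18.4 times the mean and its Eomesa height the highest of the 267, above the 13 tags of the listed Eomesa_peak1947, 1721 bp away. The second gsc peak, Smad2_peak271 (19184969 to 19185282), had 13 Smad2 and 2 Eomesa tags, but the Eomesa track reached 17 tags within 1 kb of it, where no Eomesa peak was listed. By the Eomesa track alone, signal therefore stood on or beside both gsc peaks. At Smad2_peak271 itself Eomesa was 0.905 times input, and the height within 1 kb of it was not compared with input.

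The forkhead genes gave 3 of these 8 peaks. Smad2_peak367 at foxc1a, a gene of the paraxial mesoderm, had 39 Smad2, 11 Eomesa and 11 input tags. Smad2_peak366, beside it, had 22 Smad2, 3 Eomesa and 9 input tags, and their Eomesa peak, 2884 bp from the closer one, had 10 Eomesa and 11 Smad2 tags. No Smad2 peak was listed at this neighbour, so its lower Smad2 height was part of how the pairs were chosen. Smad2_peak722 at foxd3 had 28 Smad2, 3 Eomesa and 16 input tags, 909 bp from an Eomesa peak of 33 Eomesa and 19 Smad2 tags. Smad2_peak462 at blf was 64 bp wide with 3 Smad2, 0 Eomesa and 3 input tags, and ended at 10032526, 262 bp from an Eomesa peak. The Smad2 peak shared with that Eomesa peak had 20 Smad2 tags and began at 10032544. The lone blf peak thus lay directly beside a shared Smad2 peak. Smad2_peak462 is an example of the narrow intervals in the list, of which 14 of the 267 were below 100 bp.

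**Figure D5:**
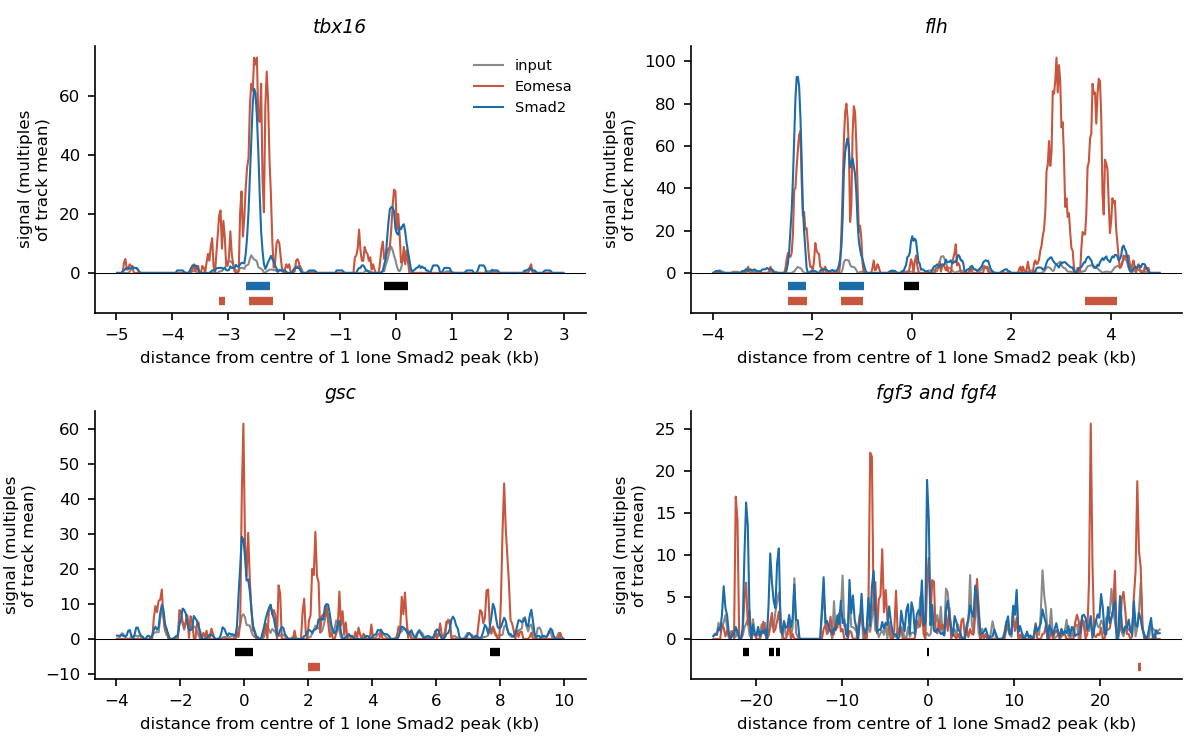
Signal (vertical axes, multiples of each track's genome mean) of Smad2, Eomesa and input at tbx16, flh, gsc and fgf3 with fgf4, against distance from the centre of a lone Smad2 peak (horizontal axes, kb); bars below mark lone Smad2 peaks (black, upper row), shared Smad2 peaks (blue, upper row) and Eomesa peaks (red, lower row). Eomesa rises at the central gsc peak, where its mean signal is 18.4, and beside the second gsc peak without a listed Eomesa peak, while its mean signal at the central flh peak is 2.69, near the median of the set.

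Fgf pathway genes were listed at 6 of the 267 peaks (2.25%, against 1.34% of all Smad2 peaks), and 3 of these lay around fgf3 and fgf4, which encode ligands. Smad2_peak796 (chromosome 7, 54647492 to 54647803), listed with both genes, had 40 Smad2 tags (28.6 to 54.5), 6 Eomesa tags and 2 input tags. Its ratio to input was 34.2 for Smad2 and 15.7 for Eomesa, both resting on few input tags, of which the interval was 0.242 to 7.22. The nearest Eomesa peak, 24211 bp away, had 9 Eomesa and 7 Smad2 tags, less Smad2 than at any of the lone peaks here. Smad2_peak794 and Smad2_peak795 at fgf4 had 15 and 17 Smad2 tags with 3 Eomesa tags each, and Smad2_peak793 next to them had 27 Smad2 and 4 Eomesa tags. The gap of the last 3 was between 41511 and 45102 bp, so that this stretch of the locus held Smad2 peaks with Eomesa only at a distance in the list. In the track, Eomesa reached 13 tags within 1 kb of Smad2_peak793. At fgf24, Smad2_peak170 (chromosome 14, 5554977 to 5555417) had 37 Smad2, 22 Eomesa and 4 input tags, a ratio of Eomesa to input of 15.1. This Eomesa height was greater than the 11 tags of the nearest Eomesa peak, 13752 bp away, where Smad2 reached 59 tags. Smad2_peak3 at spry2, an inhibitor of Fgf signalling, had 22 Smad2, 7 Eomesa and 13 input tags, 2568 bp from a shared region. Smad2_peak450 at fgfr4, a receptor, had 15 Smad2 and 4 Eomesa tags.

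Bmp and Wnt genes were listed at 2 of the 267 peaks (0.749%, against 2.12% of all Smad2 peaks). Smad2_peak503 at ctnnbip1, which encodes an inhibitor of beta-catenin, had 49 Smad2, 6 Eomesa and 11 input tags, and its Eomesa neighbour 12390 bp away had 21 Eomesa and 9 Smad2 tags. Smad2_peak79 at bmp7a, a Bmp ligand, had 27 Smad2, 5 Eomesa and 11 input tags. Its listed neighbour, 16489 bp away, was a narrow region of 23 bp with 4 Eomesa tags and 0 Smad2 tags. The neighbour was thus above the median Eomesa height at ctnnbip1 and far below it at bmp7a. Of 15 ectoderm and neural genes, PHOX2A and vax2 were listed at 2 peaks of 12 Smad2 tags or fewer, and genes of this list at 14 of all 898 Smad2 peaks.

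The tallest peak of the set also had the highest input. Smad2_peak297, near the start of chromosome 18 (37932 to 38509), had 64 Smad2 tags but also 70 input tags, and its ratio of Smad2 to input was 1.56. Its nearest Eomesa peak had 78 Smad2, 62 Eomesa and 78 input tags, so that all tracks were high there. After ctnnbip1 came Smad2_peak347 on chromosome 19 with 47 Smad2, 4 Eomesa and 8 input tags, and Smad2_peak157 on chromosome 13 with 46, 16 and 14. Smad2_peak773 on chromosome 7 had 45 Smad2 and 5 Eomesa tags, 12640 bp from a shared region of 56 Smad2 and 26 Eomesa tags. Eomesa height at these 5 tallest peaks thus ranged from 4 to 23 tags.

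The smallest gaps could hardly be told from overlap. Smad2_peak674 on chromosome 5 ended 1 bp before an Eomesa peak of 56 bp, and had 12 Smad2 and 6 Eomesa tags, with as many Eomesa tags in the neighbour. Smad2_peak529 (24 bp), Smad2_peak866 (52 bp), Smad2_peak51 (69 bp) and Smad2_peak382 (71 bp) followed, with 3 to 13 Eomesa tags. In each case a Smad2 tag of 132 bp would bridge the gap. An Eomesa tag of 38.9 bp would do so only at Smad2_peak674 and Smad2_peak529. The highest ratios of Eomesa to input were 18.3 at Smad2_peak28 near hmgb2, which encodes a chromatin protein, 17.8 at Smad2_peak183 near insb, and 15.7 at the fgf3 peak. They rested on 5, 4 and 2 input tags. Smad2_peak75, Smad2_peak390 and Smad2_peak889 had no Eomesa tag, with 13, 9 and 10 Smad2 tags. The study tested a few Smad2 peaks by ChIP-qPCR, and of these Smad2_peak10, Smad2_peak793 and Smad2_peak796 were among the 267. Smad2_peak10 had 15 Smad2, 5 Eomesa and 10 input tags.

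Part of the peaks stood in runs. A run of at least 3 lone Smad2 peaks with gaps of at most 10 kb held 36 of the 267 peaks (13.5%, 9.90 to 18.1), compared with 10.3% of all lone Smad2 peaks and 20 of 276 farther ones (7.25%, 4.74 to 10.9). Of the 36, 20 lay on chromosome 25, 9 on chromosome 7, 4 on chromosome 14 at exosc3 and 3 on chromosome 3 at h3f3a. Chromosome 7 held 28 of the 267 peaks and 68 of all Smad2 peaks, and chromosome 25 held 24 and 54. Peaks in runs had median heights of 17 Smad2, 3 Eomesa and 7 input tags, and the 231 others had 14, 3 and 7. At least 2 times as much Eomesa as input was found at 7 of the 36 and at 66 of the others. Several runs were at histone genes, which encode the core of the nucleosome and many of which lie in arrays of near-identical copies. A histone gene was listed at 18 of the 267 peaks, compared with 3.67% of all Smad2 peaks, at 13 of the farther lone peaks and at 2 of the shared ones. Of the 18, 16 stood in runs, 3 of them at h3f3a. The histone list held 12 genes by name and no zgc gene. Some zgc genes, such as zgc:154164, were listed both in these runs and in runs with no listed histone gene. The 18 peaks with a listed histone gene had median heights of 16 Smad2 and 9.5 input tags. Their median ratio of Smad2 to input was 2.67, against 3.43 over the 267. The tallest were Smad2_peak808 on chromosome 7, with 31 Smad2, 9 Eomesa and 17 input tags, and Smad2_peak571 on chromosome 25, with 22, 2 and 15. Reads that mapped to as many as 2 places had been kept, so tags at such copies cannot be assigned to 1 of them, and the part of this in the values was not tested.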

How the data were processed

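Smad2, Eomesa and input chromatin of zebrafish blastulas were measured by ChIP-seq. The authors mapped reads to Zv9 with Bowtie, allowing a read as many as 2 places, and called peaks with MACS against paired input. The deposited lists hold regions found in both reactions and, in the fifth column, their width in bp, with no score. The deposited tracks hold the MACS coverage signal, a pileup of tags every 5 bp that was not scaled to depth. Whether a track holds both reactions is not stated. The tracks held 12.6 M, 12.3 M and 19.0 M tags for Smad2, Eomesa and input (M, mega), estimated from the summed signal and the length of isolated tags. Of the peaks, 2 Smad2 and 12 Eomesa regions had no width and were measured at 1 step. There were 0 per-sample columns left unused.

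The gap is the number of bases between the nearest edges. Shares have 95% Wilson intervals, medians binomial order-statistic intervals and heights exact Poisson intervals, all for counting error only. Ratios leave out peaks without input signal. The computation was checked on simulated data. Python 3.11.15, numpy 2.4.6, pandas 2.3.3, scipy 1.17.1 and matplotlib 3.10.9 were used. The members, the gene lists and the rules for naming peaks were chosen with earlier results of these data known. Peaks were named for the highest Smad2, the smallest gaps, the edges of the limit, listed genes, ChIP-qPCR, or the highest or lowest ratios of Eomesa to input. The Eomesa track within 1 kb of peaks and the profiles without other Smad2 peaks nearby were measured after the data were seen. Of the 93 list genes, 84 matched a RefSeq name. Alternatives covered the distance limit, width, peak runs, height against mean, scaling and fold limit. Motif searches in the genome were not made here. The peaks at 1 listed gene are not reported here.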

Additional observations from a re-analysis of the deposited data

How the results depend on the processing

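Of 48 alternative values of 8 results, 35 stayed within the counting interval or within 1.5 times the main number, 13 moved and 0 reversed. With a distance limit of 10 kb there were 122 peaks and with 20 kb 171, instead of 267. With the limit of 20 kb, the share of nearest Eomesa peaks shared with another Smad2 peak was 25.1% instead of 18.0%, and the median Smad2 signal at the nearest Eomesa peak was 5.81 instead of 5.01. Leaving out shared neighbours gave 4.46. Median Smad2 height was 11.9 times the track mean, and the mean over the peak gave 7.65. Highest values instead of means gave 8.82 for Eomesa, 3.94 for input, 2.17 for the ratio of Eomesa to input and 7.65 for Smad2 at the nearest Eomesa peak. Scaling to tags put that ratio at 0.341, below input, where the main value of 1.16 was above it. This was counted as moved and not as reversed, as the shorter Eomesa tag makes the ratio lower by construction. Fold limits of 1.5 and 3 gave shares of 38.5% and 17.0% with Eomesa above input. For values of a single track, scaling to tags only changes the unit and was not listed. No paired analysis was possible because neither list nor track names a reaction, which also means that no reaction could be left out. With 14 Smad2 tags at the median peak, differences of a few tags between single peaks were not detectable at this depth.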
